A study of Homo sapiens with 4 samples.

Results

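Expression of 10 long noncoding RNAs was examined in the core and in the invasion zone of melanoma spheroids. The set holds the nuclear transcripts MALAT1 and NEAT1, the snoRNA host genes GAS5, SNHG1 and SNHG5, the microRNA host genes MIR210HG, MIR22HG, H19 and MEG3, and PVT1. Each was found as the row of the count table that carries its symbol, and all 10 were present among 56304 gene rows. Bulk RNAseq was performed on MV3 cells, an established and highly metastatic human melanoma line that carried the nuclear marker H2B-GFP in every sample. Large spheroids were kept in collagen I for 2 days, after which the core was removed with a biopsy punch and the invasion zone around it with a wider one. There were 2 libraries per zone, numbered 1 and 2. The model is 1 cell line, and because the punch cut vertically, cells that had invaded above or below the core can remain in the core samples. The sources do not say whether the replicates were separate cultures, so p-values measure the spread between these libraries, which may be technical. In fits that take the replicate number as a block, they measure how alike the 2 same-numbered zone differences were.

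MALAT1 and NEAT1 stay in the nucleus, where MALAT1 collects at nuclear speckles rich in splicing factors and the long form of NEAT1 is the scaffold of paraspeckles. Host genes carry small RNAs within their transcripts: snoRNAs that guide the modification of ribosomal RNA are cut from the introns of GAS5, SNHG1 and SNHG5, while microRNAs are cut from MIR210HG, MIR22HG, H19 and MEG3. MIR210HG and its microRNA are known as targets of the hypoxia-inducible factors, GAS5 is known to accumulate in growth-arrested cells, and spliced snoRNA host transcripts are often removed by nonsense-mediated decay.

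Library totals ranged from 11789243 to 37591782 counts, with the shallower pair in replicate 2, and the 10 most abundant genes took 4.25 to 5.58% of the counts. The melanocyte genes SOX10 and TYR had 0 counts in every library, and the summed level of the 8 melanocyte lineage markers ranged from 2.91 to 6.05 normalized CPM (counts scaled by library size and TMM factor). The dedifferentiated melanoma markers AXL, EGFR, VIM and CD44 were abundant, and their list of 8 summed to 5820 to 7380 CPM. CD44 and VIM made up most of this sum. NGFR, of the same list, was near 0, with at most 0.0662 CPM in any library. Markers of other cell types were at or near 0 for leukocytes (5 genes, summed 0.0841 to 0.586 CPM), for the fibroblast genes DCN and LUM (0 in every library), for the endothelial genes CDH5 and KDR and for the epithelial genes CDH1 and EPCAM. Exceptions in these lists were PDGFRA (95.1 and 58.2 CPM in the core, 38.1 and 13.6 in the invasion zone), FAP (27.8 and 23.5 against 11.0 and 9.41), PECAM1 (18.1 and 7.42 against 5.22 and 0.925), KRT8 and KRT18. The summed level of the 5 fibroblast markers was 123 and 81.7 CPM in the core and 49.2 and 23.1 in the invasion zone. Nearly all of this sum was PDGFRA and FAP, and COL1A2 had at most 0.0841 CPM. The sum went in the direction of NEAT1 and MIR210HG, and its part in their values was not tested.

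The microRNAs that lie in 3 of these host genes are shown first, because a host RNA is named for the sequence it carries. The entries of RefSeq (GRCh38.p14) are written 5′ to 3′ with the seed, bases 2 to 8, in capitals.
hsa-miR-210-3p (chr11:568112-568133, minus strand): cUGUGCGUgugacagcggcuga
hsa-miR-210-5p (chr11:568150-568171, minus strand): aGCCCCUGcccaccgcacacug
hsa-miR-22-3p (chr17:1713914-1713935, minus strand): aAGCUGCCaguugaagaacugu
hsa-miR-22-5p (chr17:1713952-1713973, minus strand): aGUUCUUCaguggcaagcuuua
hsa-miR-675-3p (chr11:1996768-1996787, minus strand): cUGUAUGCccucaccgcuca
hsa-miR-675-5p (chr11:1996800-1996822, minus strand): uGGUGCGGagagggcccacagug
The 6 mature sequences hold 6 distinct seeds, so no 2 of them fall into 1 seed family. In GENCODE release 44 on GRCh38, the MIR210 hairpin lies in the intron of the 2-exon canonical MIR210HG transcript and touches no exon of any MIR210HG transcript. The miR-22 sequences lie in exon 4 of the 4-exon canonical MIR22HG transcript, and MIR675 lies in an intron of the canonical H19 transcript but within exons of other H19 transcripts.

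The region around the start of 4 members is shown because the data bear on them. MIR210HG had the largest zone difference measured with ample counts, and MIR22HG and H19 are its fellow microRNA hosts. By its GENCODE position, SNHG1 starts 51 bases from the coding gene SLC3A2, whose level is given beside it. The RefSeq start used for the SNHG1 sequence below is a different base. Each sequence covers 250 bases before to 50 bases after the RefSeq start (GRCh38.p14), and capitals mark ACGTG or GCGTG on either strand, the core letters of the hypoxia response element.
MIR210HG promoter (chr11:568408-568707, minus strand): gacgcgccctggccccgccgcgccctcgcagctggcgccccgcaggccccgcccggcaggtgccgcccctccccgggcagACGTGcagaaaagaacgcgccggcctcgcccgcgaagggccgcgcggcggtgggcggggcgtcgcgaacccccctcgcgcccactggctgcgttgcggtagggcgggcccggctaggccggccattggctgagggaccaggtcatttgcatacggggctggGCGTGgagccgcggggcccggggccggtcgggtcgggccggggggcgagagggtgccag
MIR22HG promoter (chr17:1716161-1716460, minus strand): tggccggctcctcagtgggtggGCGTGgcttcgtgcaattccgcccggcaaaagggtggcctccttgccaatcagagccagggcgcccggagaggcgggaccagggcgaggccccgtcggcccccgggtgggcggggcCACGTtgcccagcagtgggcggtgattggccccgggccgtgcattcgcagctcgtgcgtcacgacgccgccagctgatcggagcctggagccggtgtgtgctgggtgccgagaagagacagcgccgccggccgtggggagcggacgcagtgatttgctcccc
H19 promoter (chr11:2001217-2001516, minus strand): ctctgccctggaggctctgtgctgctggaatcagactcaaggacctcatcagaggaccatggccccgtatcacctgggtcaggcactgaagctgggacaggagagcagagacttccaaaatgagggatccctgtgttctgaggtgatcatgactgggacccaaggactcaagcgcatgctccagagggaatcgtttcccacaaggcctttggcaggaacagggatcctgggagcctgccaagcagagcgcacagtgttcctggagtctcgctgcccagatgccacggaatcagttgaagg
SNHG1 promoter (chr11:62855836-62856135, minus strand): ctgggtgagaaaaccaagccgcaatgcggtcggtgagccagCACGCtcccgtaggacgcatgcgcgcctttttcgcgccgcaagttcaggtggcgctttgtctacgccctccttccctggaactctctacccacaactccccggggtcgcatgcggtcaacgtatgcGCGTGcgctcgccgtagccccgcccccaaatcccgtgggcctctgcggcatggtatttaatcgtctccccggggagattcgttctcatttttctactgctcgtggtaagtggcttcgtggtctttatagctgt
ACGTG is also part of the palindrome CACGTG, which would be counted on both strands. Over 35116 promoters of the same length, 21.4% held ACGTG, 36.5% held GCGTG and 48.4% held at least 1 of them. The MIR210HG window held ACGTG at positions -170 to -166 and GCGTG at -9 to -5, counted from the start, and the MIR22HG window also held 1 of each. SNHG1 held GCGTG on each strand, and the letters were not in the H19 window. Promoters of 8 members were available, and those of NEAT1 and PVT1 were not. Among the windows not shown, MALAT1 held GCGTG on each strand, MEG3 held it 1 time, and GAS5 and SNHG5 held neither ACGTG nor GCGTG.

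The levels of the 10 RNAs spanned more than 3 orders of magnitude. MALAT1 was the most abundant, ranked between 18 and 28 among all genes in each library and took 0.148 to 0.212% of the counts. Levels were compared between genes as normalized CPM per kilobase of the canonical transcript, over all 4 libraries. MALAT1 had 177 ± 27.1 (SD, n = 4), GAS5 had 47.9 ± 12.7 and SNHG1 had 24.8 ± 7.35. SNHG5 had 23.7 ± 3.01, MIR22HG 11.8 ± 2.12, MIR210HG 9.41 ± 9 and PVT1 8.25 ± 3.07. NEAT1, the longest at 22743 bases, had 6.97 ± 3.85, and H19 (0.558 ± 0.606) and MEG3 (0.367 ± 0.406) were near the detection limit. This order is of both zones together and held in neither zone alone. In the core, SNHG5 (23.5) came above SNHG1 (18.5), MIR210HG (17.2) above MIR22HG (10.5), and NEAT1 (10.2) above PVT1 (6.09). In the invasion zone, MIR210HG (1.65) came below PVT1 (10.4) and NEAT1 (3.78). The ranges of MALAT1 and GAS5 over the 4 libraries did not overlap with those of their neighbours in this order. Those of SNHG1 and SNHG5 overlapped. So did those of MIR22HG, MIR210HG, PVT1 and NEAT1 with each other, and those of H19 and MEG3. The order depends on the transcript taken as the length: per kilobase of all exons of a gene, MIR22HG (10.9) and MIR210HG (9.29) came above GAS5 (7.46) and SNHG1 (7.24), whereas MALAT1 stayed at 177. NEAT1 was divided by the length of its longest transcript, while its annotated transcripts start at 512 bases and share the same row. Its place in the order is therefore uncertain.

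**Figure D1:**
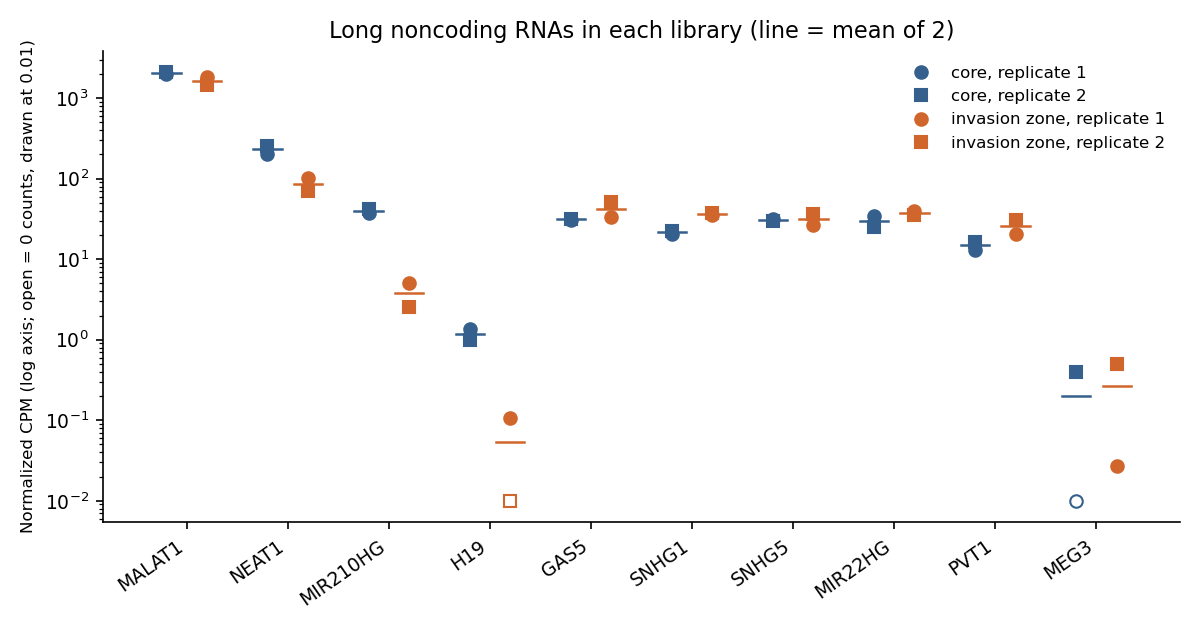
Normalized CPM (log axis) of the 10 long noncoding RNAs, with core libraries in blue and invasion zone libraries in orange, circles for replicate 1, squares for replicate 2 and a line at the mean of the 2 libraries. Open symbols mark 0 counts. NEAT1, MIR210HG and H19 show the widest gap between the zones, and the symbols of SNHG5 and MEG3 overlap.

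Zones were compared by the quasi-likelihood test of edgeR, as invasion zone over core, without a replicate term over 15529 genes, with Benjamini-Hochberg adjustment, and calls needed an adjusted p under 0.05 with a change of at least 2-fold. Of the 10 RNAs, 9 passed the filter on low counts and MEG3 did not. This test called 0 members and 0 of all genes in either direction (0%), with a smallest adjusted p of 0.128 that 503 genes shared. At an unadjusted p under 0.05, which 3769 genes (24.3%) reached, 2 members were higher (SNHG1, PVT1) and 3 were lower (MIR210HG, NEAT1, H19) in the invasion zone. Of these, 0 higher (background 2.92%) and 3 lower ones (background 5.85%) also differed by 2-fold. DESeq2 without a replicate term called 0 members higher (background 2.27%) and 2 lower, MIR210HG and NEAT1 (background 3.44%), and with the replicate block it also called 0 higher (background 2.76%) and 2 lower (background 4.83%). H19 received no adjusted p in either DESeq2 fit, so it could not be called there. Genes without an adjusted p still count in these shares.

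When the replicate number entered edgeR as a block, it called 0 members higher, against 3.41% of all genes, and 3 of 9 lower (MIR210HG, NEAT1 and H19), against 7.06% of all genes. By the adjusted p alone, with the block, SNHG1 and PVT1 were higher (19.4% of all genes) and MALAT1 was lower as well, 4 in all (19.4% of all genes). The invasion zone libraries were both above the core libraries for 4 of the 9 (28.1% of all genes) and below both for 4 (30.3% of all genes), and SNHG5 overlapped. H19 passed the filter only through its core libraries. The median log2 fold change of the 9 was 0.02, beside -0.01 over all genes tested, with 5 members above 0 and 4 below. In bulk RNA, fewer cells that express a gene and less RNA per cell cannot be told apart.

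**Figure D2:**
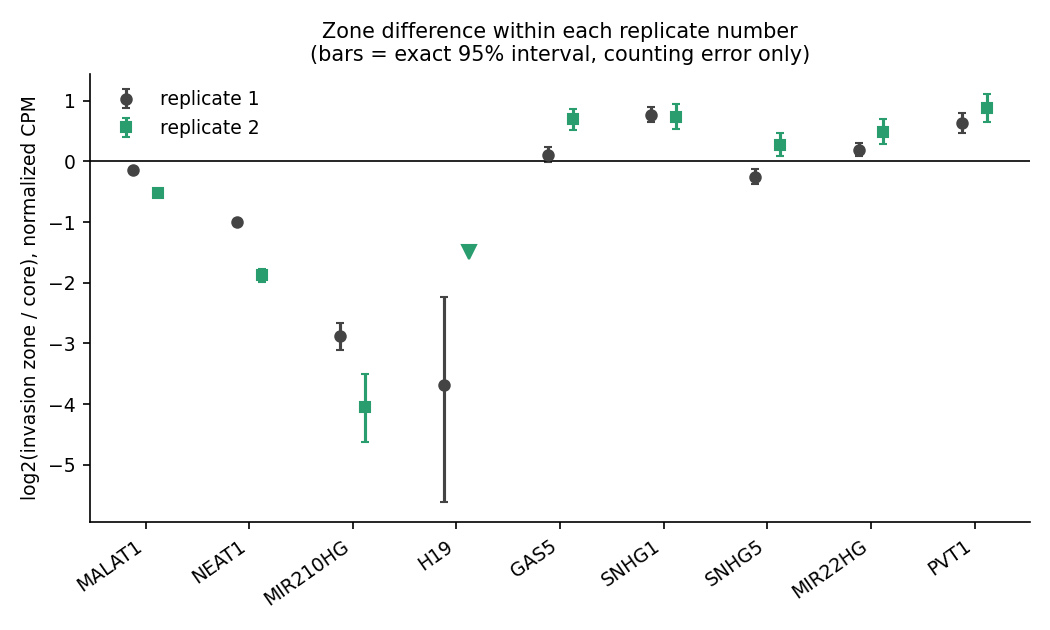
Log2 ratio of invasion zone over core in normalized CPM within replicate 1 (grey circles) and replicate 2 (green squares), with exact 95% intervals that cover counting error only; the triangle is the upper limit for H19 in replicate 2, where the invasion zone had 0 counts. MALAT1, NEAT1, MIR210HG and H19 lie below 0 in both replicates, SNHG1, MIR22HG and PVT1 above 0 in both, and SNHG5 lies on opposite sides. GAS5 also lies above 0 in both, but its interval in replicate 1 includes 0.

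MIR210HG (ENSG00000247095, chromosome 11, 565657 to 568457, minus strand), the host of miR-210, was lower in the invasion zone by 9.91-fold. It had 37.3 and 41.5 CPM in the core (replicates 1 and 2) and 5.06 and 2.52 in the invasion zone, from 1338, 626, 190 and 30 counts. Both core libraries lay far above both invasion zone libraries. The log2 fold change was -3.31 (SE 0.34, edgeR adjusted p = 0.128 without the block), and -3.27 (SE 0.23, edgeR adjusted p = 6.05e-05) with it. The core exceeded the invasion zone 7.37-fold in replicate 1 (exact 95% interval 6.33 to 8.63) and 16.4-fold in replicate 2 (11.4 to 24.6). Only 57 of the 15529 genes tested had a lower log2 fold change, and with each library left out it stayed between -3.96 and -2.96. No annotated gene with a row in the count table shares exonic bases with MIR210HG. The flanking genes RASSF7 (1632 bases away, log2 fold change -0.43) and PHRF1 (8013 bases away, 0.04) were nearer to 0. With the block, RASSF7 was also lower (-0.41, edgeR adjusted p = 0.0118), although under 2-fold and with overlapping zones.

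The row of the miR-210 hairpin itself, MIR210, held 41 and 18 counts in the core and 2 and 0 in the invasion zone, a row chosen after its values were seen. As the hairpin lies in the intron of its host, reads from unspliced host RNA and from the precursor cannot be told apart, and the mature microRNA is too short for this library type. Of 25 small RNAs hosted by the members, 18 had a row and 16 of these had 0 counts in all libraries, among them every snoRNA of GAS5 and SNHG5 that had a row. The SMARTer kit copies RNA with a poly(A) tail, which these small RNAs lack, so their counts do not measure them.

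NEAT1 (ENSG00000245532, chromosome 11, 65422774 to 65445540, plus strand) was lower in the invasion zone by 2.68-fold. Its level was 204 and 258 CPM in the core (231 ± 38.5, SD, n = 2) and 102 and 70.2 in the invasion zone (86 ± 22.3), so the zones did not overlap. The log2 fold change was -1.42 (SE 0.24, edgeR adjusted p = 0.128 without the block), and with the block it was -1.42 (SE 0.17, edgeR adjusted p = 0.00036). Within replicate 1 the core was 2.00-fold higher (1.93 to 2.08), and within replicate 2 it was 3.68-fold higher (3.41 to 3.97), so the size of the difference varied between replicates beyond counting error. The table has 1 row for the gene, hence the short form and the long, paraspeckle-forming form cannot be told apart.

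MALAT1 (ENSG00000251562, chromosome 11, 65497640 to 65508073, plus strand) lies next to NEAT1 on the same strand and showed a smaller difference. It had 2009 and 2105 CPM in the core and 1820 and 1465 in the invasion zone. Both invasion zone values were lower, by 1.25-fold on average. The log2 fold change was -0.32 (SE 0.17, edgeR adjusted p = 0.311 without the block), and -0.33 (SE 0.10, edgeR adjusted p = 0.0237) with it, under 2-fold, and -0.18 without invasion zone replicate 2. The invasion zone to core ratio was 0.906 (0.897 to 0.916) in replicate 1 and 0.696 (0.683 to 0.709) in replicate 2. Per library, the count of MALAT1 was 9.86 and 8.15 times that of NEAT1 in the core and 17.9 and 20.9 times in the invasion zone, a ratio on which library scaling has no influence. The coding gene FRMD8, 9249 bases before NEAT1, had a log2 fold change of -0.26 and was not called with or without the block. MALAT1 shares 610 of its 10434 exonic bases with a gene on the opposite strand and 57 with one on its own, and NEAT1 shares 384 of 22767 with others on its own strand. The strand setting of the counting is not given, so such reads may have been dropped or split.

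**Figure D3:**
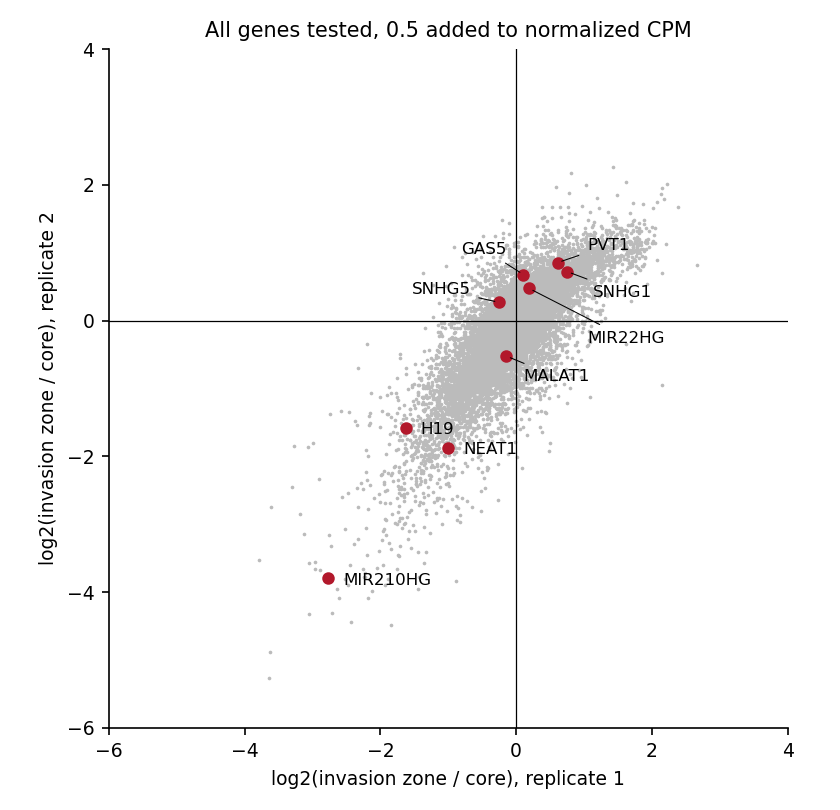
Log2 ratio of invasion zone over core in replicate 1 (horizontal) against replicate 2 (vertical) for the 15529 genes tested (grey), with 0.5 added to normalized CPM, and the 9 tested members in red. MIR210HG lies at the lower left edge of the cloud of genes, NEAT1 and H19 lie in its lower left arm, and the other 6 members lie near the centre.

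Among the genes of the other lists (151 compared), the zone differences most like those of NEAT1 were those of the microRNA host MIR29B2CHG (largest gap in log2 ratio over the 2 replicates 0.12), ZC3H6 (0.15) and PDGFRA (0.32). For MALAT1 they were TUG1 (0.12), SMG6 (0.13) and PURPL (0.14), and for MIR210HG they were NDRG1 (0.66), PECAM1 (1.09) and CA9 (1.41). The gaps for MIR210HG were wider than those for NEAT1 and MALAT1, so its nearest genes were less alike. The compared lists were chosen and include hypoxia-inducible genes such as NDRG1 and CA9, and the other genes tested were not searched. MIR29B2CHG had 30 and 5 counts in the core and 17 and 1 in the invasion zone, so its likeness to NEAT1 rests on few counts. Genes were compared over 2 pairs of libraries, which all share their depth and replicate.

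Most genes for the proteins of paraspeckles and nuclear speckles, the bodies in which both RNAs reside, had a positive log2 fold change. Of 20 paraspeckle protein genes, with the block, 0 were called higher (3.41% of all genes) and 1 was called lower (7.06% of all genes) at 2-fold. By adjusted p alone 13 were higher and 2 were lower (19.4% of all genes in each direction). Their median log2 fold change was 0.39 beside -0.01 for all genes. SFPQ, which binds NEAT1, had 286 and 376 CPM in the core and 436 and 502 in the invasion zone (log2 fold change 0.50, edgeR adjusted p = 0.00111 with the block). NONO (0.23) and HNRNPK (0.26) were also higher in each replicate. The 2 lower genes were ZC3H6 (log2 fold change -1.23) and RUNX3 (-0.55), named after their values were seen. Of 10 nuclear speckle genes, 6 were higher and 1 was lower by adjusted p with the block (19.4% of all genes in each direction, median 0.60). The splicing factor SRSF3 was at 0.78 and SRSF5 at -0.31, and the scaffold genes SON (-0.00) and SRRM2 (-0.02) were near 0.

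H19 (ENSG00000130600, chromosome 11, 1995166 to 2004552, minus strand), an imprinted RNA of fetal tissues, was barely expressed. Its counts were 49 and 15 in the core and 4 and 0 in the invasion zone, that is 1.37 and 0.994 against 0.107 and 0 CPM. Over both replicates the core to invasion zone ratio was 15.5 (exact 95% interval 5.78 to 58.7). The fitted log2 fold change was -3.90 (SE 0.85, edgeR adjusted p = 0.13 without the block, 0.00266 with it) and rests on few counts, as it moved between -7.65 (without invasion zone replicate 1) and -3.44 with each library left out. IGF2, the imprinted partner of H19 at 124560 bases distance, was also at under 1 CPM in every library (log2 fold change -1.69, edgeR adjusted p = 0.0555 with the block). Like H19, IGF2 passed the count filter only through its core libraries. MRPL23 on the other side of H19 was at 0.55. MEG3 (ENSG00000214548, chromosome 14, 100779410 to 100861031, plus strand), an imprinted RNA with growth-suppressing activity, had 0 and 6 counts in the core and 1 and 6 in the invasion zone, so a zone difference was not detectable at this depth. Of 4 tested imprinted partners with the block, 0 were called higher and 2 lower, namely RTL1 (-2.47) and CDKN1C (-1.68), beside 3.41% higher and 7.06% lower over all genes. Both rest on few counts. RTL1 had 118 and 22 counts in the core and 26 and 0 in the invasion zone, and its log2 fold change ran from -8.67 (without invasion zone replicate 1) to -1.78 (without core replicate 1). CDKN1C had 86 and 27 against 39 and 1, and ran from -4.56 (without invasion zone replicate 1) to -1.02 (without invasion zone replicate 2). KCNQ1OT1 was at -0.02.

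MIR22HG (ENSG00000186594, chromosome 17, 1711447 to 1717174, minus strand), a stress-induced host of miR-22, had 34.9 and 25.4 CPM in the core and 39.9 and 35.6 in the invasion zone. The zones lay next to each other without overlap, at 34.9 and 35.6 CPM for the nearest libraries, and the log2 fold change of 0.32 (SE 0.20) was not called (edgeR adjusted p = 0.385 without and 0.0529 with the block). Without core replicate 2 it was 0.12. Its neighbour TLCD2, 1070 bases away, was lower in the invasion zone (16.7 and 15.7 against 5.89 and 5.13 CPM, log2 fold change -1.55, edgeR adjusted p = 0.000248 with the block). PVT1 (ENSG00000249859, chromosome 8, 127794526 to 128187101, plus strand), the RNA downstream of MYC, had 13.1 and 16.6 CPM in the core and 20.4 and 30.5 in the invasion zone. Its log2 fold change was 0.77 (SE 0.26, edgeR adjusted p = 0.169 without the block), and with the block it was higher at 0.75 (SE 0.13, edgeR adjusted p = 0.00257) and under 2-fold. Without invasion zone replicate 2 it was 0.46. MYC itself had 82.1 and 104 CPM in the core and 158 and 182 in the invasion zone, and its log2 fold change was 0.87 (edgeR adjusted p = 0.000135 with the block).

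Of the 16 tested microRNA host genes, 1 was called higher and 3 lower with the block at 2-fold, namely MIR17HG (log2 fold change 1.25), and MIR210HG, H19 and MIR3142HG (-1.06). Over all genes the shares were 3.41% higher and 7.06% lower, and 2 of the 3 lower hosts are members. The median was 0.14. Hosts with the highest levels were MIR22HG, MIR100HG (0.78, edgeR adjusted p = 0.000982 with the block), MIR210HG and MIR4435-2HG (0.67, 0.00175). Of 9 tested hypoxia-linked long noncoding RNAs, 4 were called lower with the block (MIR210HG, NEAT1, H19 and LUCAT1, at -2.16) and 0 higher. All but LUCAT1 are members already counted above, and H19 passed the filter only through its core libraries. By adjusted p alone, with the block, 5 were lower and 2 were higher, MIR31HG (0.91) and LINC01116 (0.34). Over all genes that share was 19.4% in each direction. The tested hypoxia-inducible coding genes were all on the side of MIR210HG, with a median of -1.41. With the block, 8 of 11 were called lower (7.06% of all genes) and 11 of 11 were lower by adjusted p alone (19.4% of all genes). LDHA (lactate production) had a log2 fold change of -1.25, BNIP3 (mitophagy) -1.72, ADM -1.24 and the glucose transporter SLC2A1 -0.66. CA9 (-4.21) and NDRG1 (-2.93), named after their values were seen, were the members of that list closest to MIR210HG in size. These genes come from the same 4 libraries, so they are no independent evidence.

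The log2 fold changes of the 3 snoRNA host members were 0.75 for SNHG1, 0.43 for GAS5 and 0.02 for SNHG5, and the differences between them were not tested. SNHG1 (ENSG00000255717, chromosome 11, 62851978 to 62855953, minus strand), which carries several C/D box snoRNAs, had 20.6 and 22.3 CPM in the core and 35.1 and 37.2 in the invasion zone. The libraries of each zone lay close together and the zones apart, with a 1.71-fold (1.56 to 1.87) higher level in replicate 1 and a 1.66-fold (1.44 to 1.92) higher level in replicate 2. The log2 fold change was 0.75 (SE 0.15, edgeR adjusted p = 0.128 without the block), and with the block SNHG1 was higher at 0.75 (SE 0.11, edgeR adjusted p = 0.000912). It was not called at 2-fold. SLC3A2, the amino acid transporter subunit, starts 51 bases away on the other strand in GENCODE. It had 280 and 247 CPM in the core and 243 and 250 in the invasion zone (log2 fold change -0.10), and its zones overlapped.

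GAS5 (ENSG00000234741, chromosome 1, 173858559 to 173868882, minus strand) had 30.8 and 31.9 CPM in the core and 33.2 and 51.4 in the invasion zone. Most of its difference came from replicate 2 (1.61-fold, 1.43 to 1.82), whereas the interval in replicate 1 included 1 (1.08-fold, 0.993 to 1.17). The log2 fold change of 0.43 (SE 0.24) was not called (edgeR adjusted p = 0.331 without and 0.063 with the block), and it dropped to 0.08 without invasion zone replicate 2. SNHG5 (ENSG00000203875, chromosome 6, 85650491 to 85678932, minus strand) had 32 and 29.9 CPM in the core and 26.8 and 36.2 in the invasion zone. Its ratio was below 1 in replicate 1 (0.836, 0.767 to 0.911) and above 1 in replicate 2 (1.21, 1.06 to 1.38), and the log2 fold change of 0.02 (SE 0.20, edgeR adjusted p = 0.97) has no direction that holds between processing choices. SNHG5 shares 1728 of its 12604 exonic bases with other genes on its own strand, so its count is less certain.

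**Figure D4:**
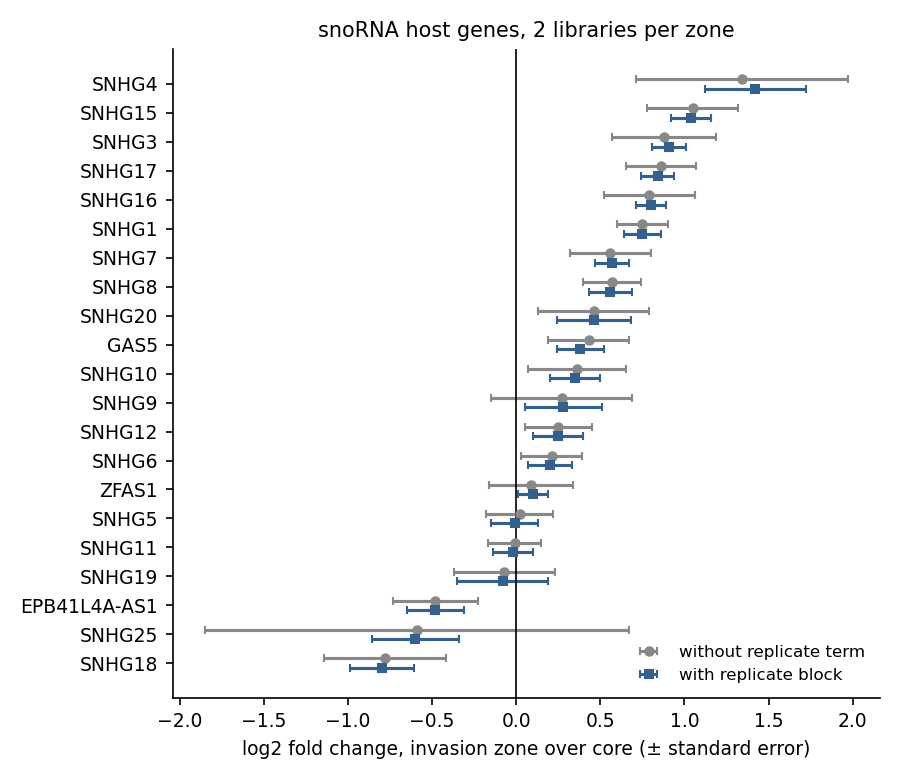
Log2 fold change of invasion zone over core for the 21 tested snoRNA host genes (2 libraries per zone), without a replicate term (grey circles) and with the replicate block (blue squares); bars are standard errors. SNHG1 lies among the higher genes at 0.75, GAS5 lies at 0.43 and SNHG5 at 0.02, and the 5 genes at the bottom are below 0 without the block.

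Over all 21 tested snoRNA host genes, the median log2 fold change was 0.36, beside -0.01 for all genes. With the block, 2 were called higher at 2-fold, SNHG4 (1.34) and SNHG15 (1.05), and 0 lower, and by adjusted p alone 8 were higher and 1, SNHG18 (-0.78), was lower. Over all genes the shares were 3.41% higher and 7.06% lower at 2-fold, and 19.4% in each direction by adjusted p alone. The hosts of highest level were SNHG17 (51.9 and 59.8 CPM in the core, 84.2 and 118 in the invasion zone, log2 fold change 0.86), SNHG16 (0.79), ZFAS1 (0.09) and SNHG3 (0.88). SNHG1 was thus 1 of 8 hosts past the adjusted threshold, and GAS5 and SNHG5 were among the 12 that were not. Many snoRNA hosts share their start sequence with ribosomal protein genes, the 5′ terminal oligopyrimidine tract. Of 22 tested coding genes of that class, 0 were called at 2-fold with the block. By adjusted p alone 10 were higher and 2 lower, beside 19.4% of all genes in each direction, and the median was 0.20. NPM1 (0.73, edgeR adjusted p = 0.000159 with the block) and TPT1 (-0.73, 0.00023, and -0.04 without core replicate 1), named after their values were seen, differed by about as much as SNHG1, while RPS6 (0.21), EEF2 (-0.15), PABPC1 (0.12) and RPL3 (0.24) were the most abundant. Of 10 nonsense-mediated decay factors, 4 were higher and 0 lower by adjusted p with the block (19.4% of all genes in each direction, median 0.23), with SMG5 at 0.50, UPF1 at 0.39 and SMG1 at 0.12.

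Of 8 tested long noncoding RNAs of other kinds, 0 were called at 2-fold with the block, and by adjusted p alone 3 were higher (CYTOR, DANCR and JPX) and 2 lower, beside 19.4% of all genes in each direction. NORAD, a cytoplasmic RNA that binds PUMILIO proteins, was lower (503 and 476 CPM in the core, 343 and 270 in the invasion zone, log2 fold change -0.67, edgeR adjusted p = 0.000407 with the block), as was TUG1 (-0.30, 0.0267), while OIP5-AS1 (-0.11) was not called. RMRP and TERC, which lack a poly(A) tail, had 0 counts in every library, as had the p53-induced PANDAR. Of 5 tested p53-linked long noncoding RNAs with the block, 0 were called higher and 2 lower, beside 3.41% and 7.06% of all genes. The lower ones were the member NEAT1, already counted above, and TP53TG1 (-1.20). LINC-PINT (-0.49) and PURPL (-0.30) were not called. Mitochondrial transcripts made up 1.72 and 1.13% of core counts and 1.43 and 1.06% in the invasion zone, led by MT-RNR2 (log2 fold change -0.32), MT-CO2 (-0.25), MT-CO3 (-0.11) and MT-CYB (-0.32). Of 15 tested, 2 were higher and 5 lower by adjusted p with the block, beside 19.4% of all genes in each direction. At 2-fold 0 were called, beside 3.41% higher and 7.06% lower over all genes. MT-RNR1 (0.46) and MT-CO1 (0.26), named after their values were seen, were the higher ones, and MT-RNR2 and MT-CYB were among the lower.

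**Figure D5:**
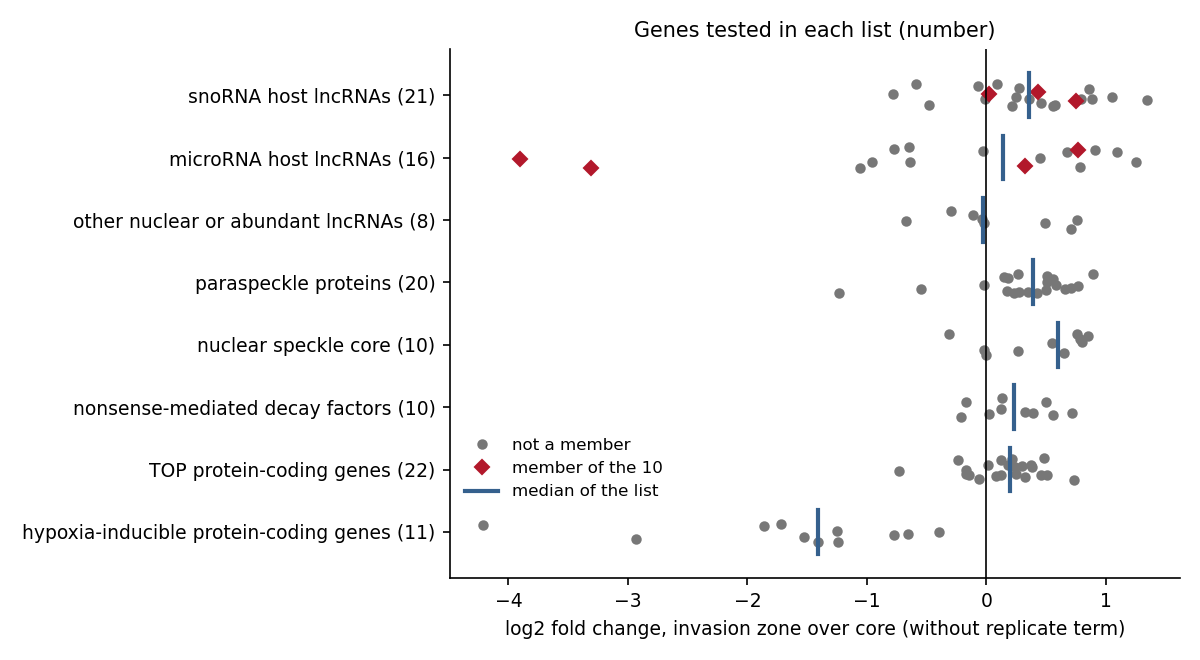
Log2 fold change of invasion zone over core, without a replicate term, for the tested genes of 8 lists (number in brackets); red diamonds are members of the 10 RNAs, grey circles are other genes and blue lines are the list medians. MIR210HG and H19 lie to the left of all other microRNA hosts, in the range of the hypoxia-inducible coding genes (median -1.41), and snoRNA hosts spread on both sides of 0 (median 0.36).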

How the data were processed

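Bulk RNAseq was analyzed from 2 core and 2 invasion zone libraries, grouped by sample title. The deposited values are raw counts per gene: the authors removed ribosomal reads with Bowtie, aligned reads to hg38 with STAR and counted uniquely mapped reads with HTSeq, and they used DESeq2 for their own comparison. The sources used here give no versions, annotation release or strand setting. The table has 56306 rows, of which 2 repeated ones were left out, and 0 sample columns were unused. Libraries of the same zone differed beyond sampling noise (chi-square per degree of freedom 33.8 and 31.9), so each was counted as 1 replicate.

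Genes passed with at least 2 libraries at 10 counts (for the median library size) and a total of 15 counts, and were tested in R 4.3.3 with edgeR 4.0.16 (TMM, quasi-likelihood test, Benjamini-Hochberg adjustment over 15529 genes), without a replicate term. Standard errors are the log2 fold change divided by the square root of F. A second fit took the replicate number as a block and is printed where it changes a call. It left 1 residual degree of freedom per gene, against 2 without the block. Its small p-values therefore rest on 2 differences and on a spread estimated across genes. The core and its corresponding invasion zone were taken from 1 dissected culture and libraries of the same number carry adjoining library numbers in the table. This was taken as pairing, although the sources do not say what the number marks. Deviations of same-numbered libraries correlated at 0.58 across genes, over 2 pairs. DESeq2 1.42.0 and limma 3.58.1 gave alternatives, as did other scaling, filters, thinning to the smallest total, each library left out, and offsets for GC content and transcript length. Intervals of count ratios are exact and cover counting error only.

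Members and gene lists were chosen with earlier results of these data known. All members were named. As the test called no gene, the 4 tested genes of highest mean level stand for each other list, beside nearest coding neighbours and the genes most like 3 members. Some genes under this rule are not reported here. Any other gene was chosen after its values were seen. Positions came from GENCODE release 44, which held 98.1% of the identifiers, and sequences from RefSeq tables. Figures were drawn with matplotlib 3.10.9.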

Additional observations from a re-analysis of the deposited data

How the results depend on the processing

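With 2 libraries per zone, the calls depended on the replicate term, the count filter, the test and the libraries used, and the cause was not tested. The numbers of genes called higher and lower, 0 and 0 in edgeR without a replicate term, were also 0 and 0 with RLE or upper-quartile scaling, every library at 10 counts or more, limma voom, a test with no fold change minimum, thinning to the smallest total and the GC and length offset. With the replicate block, which pairs same-numbered libraries, they were 530 and 1097 (32.6% higher), and with the GC and length offset as well 784 and 1007 (43.8% higher). DESeq2 gave 353 and 534, DESeq2 with the block 428 and 750, no filter on low counts 427 and 846, an unadjusted p 454 and 909, and the block with no fold change minimum, chosen after the data were seen, 3009 and 3007. With each library left out, where the spread of a lone library was taken from the other zone, 13 to 632 genes were higher and 125 to 1137 lower. The pairs of numbers were 13 and 125 (core replicate 1 left out), 632 and 665 (core replicate 2), 576 and 1137 (invasion zone replicate 1), and 212 and 347 (invasion zone replicate 2). Of the 10 RNAs, 0 were called higher under all of these but 2: 1 (PVT1) without invasion zone replicate 1 (0 to 1 with each library left out), and 2 with the block and no fold change minimum. The number called lower was 3 with the block, with the block and the GC and length offset, without the count filter and at an unadjusted p, 2 in DESeq2 with or without the block, 4 with the block and no fold change minimum, 0 in the others, and 2 to 3 with each library left out. The log2 fold changes of the members kept their sign in all alternatives run except for SNHG5, and normalized CPM moved by at most 1.46% without TMM factors. H19 has no value at a minimum of 10 counts in every library, and no adjusted p in DESeq2 with or without the block. Among all other genes named, those with a log2 fold change near 0 or few counts changed sign as follows. With each library left out the log2 fold change ranged from -0.21 to 0.22 for SNHG5, -0.16 to 0.41 for ZFAS1, -0.61 to 0.10 for PURPL, -0.28 to 0.32 for KCNQ1OT1, -0.19 to 0.16 for SON, -0.21 to 0.22 for SRRM2, -0.13 to 0.45 for SMG1, -0.01 to 0.46 for RPL3, -0.25 to 0.51 for PABPC1, -0.21 to 0.00 for OIP5-AS1, -0.57 to 0.19 for MT-CO2, -0.36 to 0.21 for MT-CO3, -0.64 to 0.02 for MT-CYB, -0.62 to 0.07 for MT-RNR2, -0.33 to 0.64 for MITF, -0.90 to 1.01 for PMEL, -0.32 to 0.39 for MLANA, -0.14 to 0.33 for VIM, -0.18 to 0.01 for SLC3A2 and -0.09 to 0.19 for PHRF1. With the replicate block the value was -0.01 for SNHG5, 0.02 for KCNQ1OT1 and -0.02 for PMEL. With upper-quartile scaling the value was -0.01 for SNHG5. With at least 10 counts in every library the value was -0.01 for SNHG5. In limma voom the value was -0.06 for SNHG5, 0.03 for KCNQ1OT1, -0.05 for MITF and -0.28 for PMEL. With the GC and length offset and the replicate block the value was -0.03 for SNHG5, 0.10 for KCNQ1OT1, 0.12 for SON, 0.28 for SRRM2, 0.13 for EEF2, 0.01 for OIP5-AS1, 0.06 for FRMD8, 0.10 for SLC3A2 and 0.05 for SMG6. In DESeq2 with the replicate block the value was 0.03 for KCNQ1OT1, 0.00 for SON, 0.01 for SRRM2 and 0.01 for MLANA. With the GC and length offset the value was 0.06 for KCNQ1OT1, 0.12 for SON, 0.27 for SRRM2, 0.14 for EEF2, 0.01 for OIP5-AS1, 0.05 for FRMD8, 0.10 for SLC3A2 and 0.05 for SMG6. With RLE scaling the value was 0.01 for SON. In DESeq2 the value was 0.01 for SON.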
